A study of Mus musculus with 8 samples.

Results

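Open chromatin at the loci of 41 genes of the lysosome and of phagocytosis was described in mouse bone marrow-derived macrophages (BMDMs). ATAC-seq, in which a transposase cuts and tags accessible DNA, had been done on 8 libraries of BMDMs grown from the marrow of adult C57BL/6 mice. The peaks of these genes were the ones that the authors' annotation assigned to a gene of the list by its nearest transcription start site (TSS), at no more than 100 kb from that TSS. In the table of WT cells, 44 of 9698 peaks met this rule and belonged to 26 of the 41 genes. In the table of NCoR f/f cells, 123 of 24867 peaks did, and these belonged to 40 of the 41 genes. Nearest-TSS assignment gives a peak a gene name by distance only.

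WT BMDMs were treated for 6 h with vehicle (Veh), with KLA (Kdo2 lipid A, a TLR4 agonist that stands in for bacterial lipopolysaccharide) or with RGFP966 + KLA, where RGFP966 is an inhibitor of the histone deacetylase HDAC3 that was added before KLA with the serum starvation. The treatment entry of the last pair of libraries names KLA alone, and their titles and descriptions name RGFP966. NCoR f/f BMDMs carried the floxed NCoR1 allele with no Cre named in the labels, served the study as the control of a myeloid (LysM-Cre) knockout, and were treated with Veh. Each of these 4 conditions had 2 libraries. The sources used here do not say whether the libraries of a pair came from separate mice. The p-values below therefore rest on counting error and on a spread between libraries that may be technical. That spread was mostly pooled over all peaks (edgeR common dispersion 0.0052), so the 2 libraries of a single peak weigh little in it. The WT libraries held between 116733 and 202523 tags in peaks and the NCoR f/f libraries 372367 and 509741, which was 1.40% to 2.73% of all their tags. A peak of these genes held a median of 12 tags in a WT library, and a count of that size has an exact Poisson interval of 6.20 to 20.96 at 95% confidence, for counting error only. Peaks within 2 kb of the TSS of macrophage markers were found at Cd68 alone of 8 markers in the WT table and at Cd68, Fcgr1, Itgam, Mertk and Spi1 in the NCoR f/f table. Those of T cells, B cells, neutrophils and fibroblasts were at 0 in both tables, and of 4 erythroid markers Klf1 had a peak in the NCoR f/f table. The Cd68 marker peak of the WT table was reproducible at KLA only. In the NCoR f/f table the Fcgr1 marker peak was reproducible only in vehicle-treated NCoR knockout cells, and that of Itgam only in KLA-treated NCoR f/f cells.

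Lysosomes are acidic compartments in which proteases, glycosidases and lipases break down material that the cell takes up or turns over. The proton pump V-ATPase keeps them acidic, and the transcription factors TFEB and TFE3 bind a short E-box-like element, called CLEAR, near the start sites of many lysosomal genes. Macrophages feed this system through phagocytic receptors for antibody-coated, complement-coated and dying cells, and TLR4 signaling changes how they handle what they engulf.

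The sequences that the results turn on were read from the mm10 genome (GRCm38.p6, RefSeq) on the plus strand, 5′ to 3′. The first 5 are the peaks of these genes that passed the test in a WT comparison, and they are shown because every called change of a single peak of these genes sits in them. Capitals mark matches to the motifs searched on both strands, which were CLEAR-type (GTCACGTG), E-box (CACGTG, which lies inside the CLEAR-type letters), AP-1 (TGANTCA), NF-kB (GGNNTTTCC), PU.1 (GAGGAAGT), C/EBP (TTGCNNAA) and IRF (GAAANNGAA). Of peaks wider than 300 bp the central 300 bp are printed.
Hexa intron 1, chr9:59544742-59545021: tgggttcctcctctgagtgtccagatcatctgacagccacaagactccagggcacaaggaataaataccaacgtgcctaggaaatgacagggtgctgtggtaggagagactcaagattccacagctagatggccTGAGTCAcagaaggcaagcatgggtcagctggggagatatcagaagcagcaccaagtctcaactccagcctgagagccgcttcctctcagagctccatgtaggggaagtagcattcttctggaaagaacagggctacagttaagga
Axl intron 6, chr7:25776816-25777057: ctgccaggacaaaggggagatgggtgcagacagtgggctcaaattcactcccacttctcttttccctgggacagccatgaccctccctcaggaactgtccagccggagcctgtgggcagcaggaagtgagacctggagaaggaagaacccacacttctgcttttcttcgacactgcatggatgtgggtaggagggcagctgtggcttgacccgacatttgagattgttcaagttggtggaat
Psap upstream intergenic, chr10:60262496-60262795: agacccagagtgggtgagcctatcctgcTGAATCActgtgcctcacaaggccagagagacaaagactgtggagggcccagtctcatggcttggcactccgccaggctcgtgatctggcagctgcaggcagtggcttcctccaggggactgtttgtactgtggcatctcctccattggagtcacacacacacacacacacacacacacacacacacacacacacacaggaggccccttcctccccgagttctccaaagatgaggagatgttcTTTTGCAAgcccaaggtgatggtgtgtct
Ctsh upstream intergenic, chr9:90033939-90034238: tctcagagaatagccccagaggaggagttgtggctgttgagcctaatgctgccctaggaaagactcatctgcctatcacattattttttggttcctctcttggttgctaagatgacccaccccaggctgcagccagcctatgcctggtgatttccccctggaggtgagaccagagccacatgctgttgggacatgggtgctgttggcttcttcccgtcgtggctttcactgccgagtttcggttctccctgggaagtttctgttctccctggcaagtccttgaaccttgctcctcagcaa
Atp6v1b2 upstream intergenic, chr8:69012622-69012921: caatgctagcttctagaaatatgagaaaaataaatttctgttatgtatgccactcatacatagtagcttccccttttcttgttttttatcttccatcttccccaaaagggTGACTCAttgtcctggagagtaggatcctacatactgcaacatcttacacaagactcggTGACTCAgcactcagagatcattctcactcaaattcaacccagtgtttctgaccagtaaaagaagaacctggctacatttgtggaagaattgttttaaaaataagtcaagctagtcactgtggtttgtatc
The Hexa peak held 1 AP-1 match, the Atp6v1b2 peak 2, and the Psap peak 1 AP-1 match and 1 C/EBP match. The Axl and Ctsh peaks held none of the 7 motifs. A match describes the letters of the window only.

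Promoters with the CLEAR-type letters are the other set shown, because the element is a known signature of lysosomal genes. In the WT table the promoter peaks (within 2 kb of the TSS) of Atp6v0d1 and Ctsd held it. Printed is the stretch of each peak from about the RefSeq TSS upstream, up to 300 bp. Both genes lie on the minus strand, so that TSS is at the left end. The authors' distance for the Ctsd peak (-92 bp) is counted from a start site inside the printed stretch.
Atp6v0d1 promoter, chr8:105566062-105566305: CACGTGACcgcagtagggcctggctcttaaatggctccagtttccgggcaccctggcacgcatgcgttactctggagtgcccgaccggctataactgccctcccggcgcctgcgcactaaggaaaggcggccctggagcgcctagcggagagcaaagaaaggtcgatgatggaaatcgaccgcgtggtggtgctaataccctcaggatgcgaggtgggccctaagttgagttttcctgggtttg
Ctsd promoter, chr7:142387828-142388127: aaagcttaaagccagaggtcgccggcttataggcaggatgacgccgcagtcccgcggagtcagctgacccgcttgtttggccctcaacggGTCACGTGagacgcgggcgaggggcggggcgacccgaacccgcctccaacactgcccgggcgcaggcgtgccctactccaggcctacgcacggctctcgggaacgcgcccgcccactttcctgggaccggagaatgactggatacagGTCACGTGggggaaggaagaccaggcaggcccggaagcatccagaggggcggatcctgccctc
The match of Atp6v0d1 touches its TSS, and the promoter of Ctsd held 2 matches. RefSeq windows of 250 bases before to 50 after the TSS were at hand for 34 of the 41 genes, some of which have several, and 7 of these 41 windows held GTCACGTG on either strand. They were at 7 genes (Ctsa, Ctsd, Mcoln1, Lamp1, Atp6v0d1, Lgmn and Gla), and the share was 17.1% of windows (Wilson 95% interval 8.53% to 31.3%), beside 736 of 32544 windows of all genes, or 2.26%. Among promoter peaks the share was 2 of 15 in the WT table (13.3%, 3.74% to 37.9%) beside 4.75% of all promoter peaks. In the NCoR f/f table, 7 of 47 promoter peaks held it (14.9%, 7.41% to 27.7%), beside 520 of 11820, or 4.40%. In 200 bp around the peak centers it was 4 of 47 (8.51%, 3.36% to 19.9%), beside 3.15%. AP-1 letters were in 11 of 29 distal WT peaks of these genes (37.9%), beside 36.6% of all distal peaks, and in 3 of 15 promoter peaks (20.0%, 7.05% to 45.2%), beside 5.91%. In the NCoR f/f table they were in 7 of 47 promoter peaks (14.9%), beside 6.54%. In the RefSeq windows AP-1 letters showed no excess, with 3 of 41 (7.32%) beside 7.79%. NF-kB letters were in 1 of 29 distal WT peaks (3.45%), beside 9.11%, and in 6 of the 41 RefSeq windows (14.6%, 6.88% to 28.4%), beside 5.83%. C/EBP letters were in 11 of the 44 WT peaks (25.0%, 14.6% to 39.4%), beside 13.5%, and in 18.7% of the 123 NCoR f/f peaks, beside 13.6%. PU.1 letters were in 7 of the 44 (15.9%, 7.93% to 29.4%), beside 8.92%, and in 17.1% of the 123, beside 9.58%. IRF letters were in 4 of the 44 (9.09%), beside 7.63%. These 3 motifs are given over distal and promoter peaks together, whose mix differs between these genes and all peaks. By class, PU.1 letters were in 20.7% of distal and 6.67% of promoter WT peaks of these genes, beside 13.9% and 4.22%. For C/EBP it was 24.1% and 26.7%, beside 19.5% and 7.81%. For IRF it was 13.8% and 0%, beside 10.4% and 5.01%. None of these shares was tested.

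The share of genes with a WT peak differed between the roles. All 3 genes of the transcription factor and autophagy adaptor group, 7 of 9 lysosomal proteases, 5 of 8 glycosidases, lipase and cofactors, 5 of 8 phagocytic receptors, 3 of 6 V-ATPase subunits and 3 of 7 lysosomal membrane proteins had a peak. The genes with none were Lamp1, Lamp2, Laptm5, Mcoln1, Ctsa, Ctss, Gla, Gaa, Grn, Atp6v0e, Atp6v1h, Atp6ap1, Mertk, Msr1 and Fcgr3. A promoter peak was found at 13 of the 41 genes, and at none of the 8 receptors, whose 9 peaks were all distal. The merged NCoR f/f table had a peak at all 8 receptors, 6 of them with a promoter peak, and at all 7 membrane proteins. A locus without a WT peak therefore need not be closed. Promoter peaks made up 34.1% of the 44 (Wilson 95% interval 21.9% to 48.9%), beside 51.0% of all WT peaks. Distal peaks of these genes lay in introns or between genes, up to 75965 bp from the TSS at Atp6v1b2. Their median GC content was 50.7%, and that of all distal peaks 49.1%.

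Levels are given as tags per 100000 tags in peaks of the library, summed over the peaks of a gene, and as a mean over the 6 WT libraries unless a library is named. Ctsd, an aspartic protease, had the highest sum of the proteases, with 42.65 and 42.1 at Veh, 23.5 and 29.1 at KLA and 33.1 and 31.4 at RGFP966 + KLA over 4 peaks. Its Veh libraries lay above all others and its KLA libraries below all others. Ctsc, which activates granule serine proteases, was lowest in that group at a mean of 4.71 over 1 peak.

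Itgb2, the beta chain of complement receptor 3, led the receptors over 3 peaks, with 31.0 and 38.0 at Veh, 32.1 and 30.0 at KLA and 33.6 and 28.8 at RGFP966 + KLA. Its conditions overlapped except that 1 Veh library stood highest. Itgam, the alpha chain of the same receptor, was lowest at 4.19 over 1 peak. Of the glycosidase group, Gusb (beta-glucuronidase) led with 20.2 and 26.4 at Veh, 22.5 and 16.3 at KLA and 18.8 and 13.9 at RGFP966 + KLA, and Hexa was lowest at 10.1 over all libraries. At Veh alone Lipa was lowest of that group at 13.97, and Hexa had 17.95. Gusb overlapped between Veh and KLA and was lower at RGFP966 + KLA than at Veh in both libraries.

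Npc1, which exports cholesterol from lysosomes, led the membrane proteins over all libraries with 16.3 and 13.2 at Veh, 18.2 and 16.3 at KLA and 23.7 and 21.1 at RGFP966 + KLA, and Cd68 was lowest at 7.60. Both RGFP966 + KLA libraries of Npc1 stood above the other 4, and at Veh alone Cd63 was level with it (15.2 and 14.7). Tfeb had 13.2 and 14.0 at Veh, 5.88 and 17.99 at KLA and 12.3 and 10.8 at RGFP966 + KLA, so that the KLA pair spanned all other libraries, and Tfe3 was lowest of its group at 7.18 over all libraries, while at Veh alone Sqstm1 was (8.47, beside 11.1 for Tfe3). Atp6v0d1, a subunit of the membrane sector of the pump, had 11.6 and 22.3 at Veh, 11.2 and 13.7 at KLA and 14.3 and 10.8 at RGFP966 + KLA, and Atp6v1a was lowest at 4.63.

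Per kb of peak, which allows genes to be compared, the order depended on the condition. Over all 6 WT libraries Npc2, the soluble partner of Npc1, was densest with 55.0 tags per 100000 per kb, followed by Atp6v0d1 with 39.5 and Lipa (acid lipase) with 37.8, and Fcgr1 was thinnest with 19.6. At Veh alone Npc2 (68.1) was followed by Hexa (64.1), Tfe3 (52.2) and Axl (51.1), and Ctsc was thinnest (13.7). The median density of a peak was 27.8 for these genes and 30.5 for all WT peaks. At promoters the medians were 34.3 and 33.4.

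**Figure D1:**
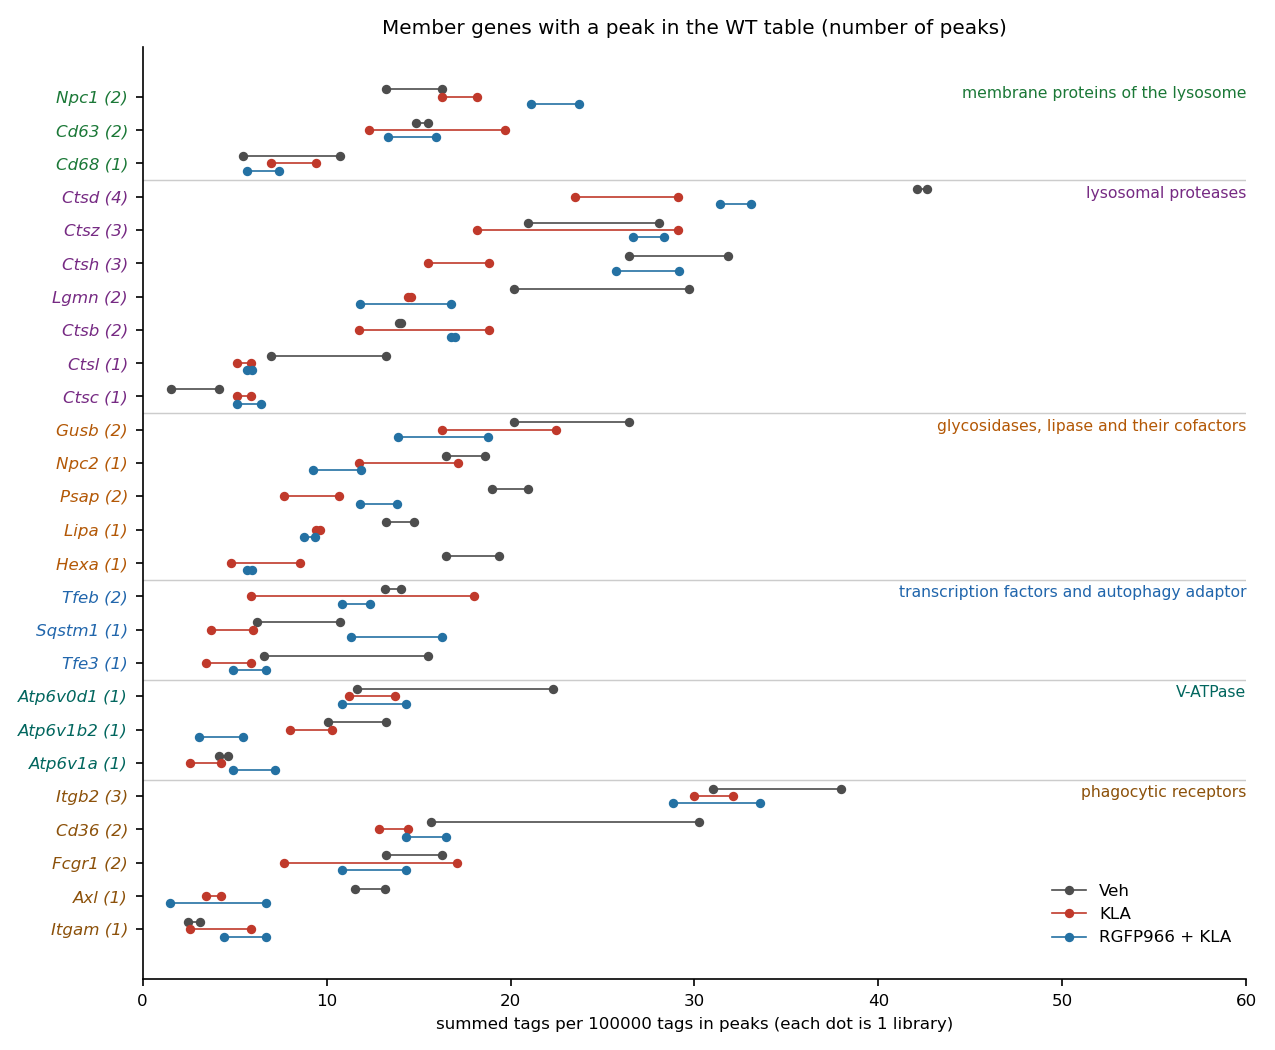
Summed level of the 26 genes with a WT peak, in tags per 100000 tags in peaks (x axis), with 1 dot per library, lines joining the 2 libraries of a condition and the number of peaks in parentheses. The Veh libraries of Hexa (19.4 and 16.5), Axl and Psap stand to the right of all 4 KLA-treated libraries, and sums are over peaks of different number and width.

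Summed over all 44 peaks, these loci took 0.424% and 0.440% of the tags in peaks at Veh, 0.305% and 0.336% at KLA, and 0.365% and 0.337% at RGFP966 + KLA. The Veh pair stood highest, and no condition overlapped another, although the nearest libraries of KLA and RGFP966 + KLA were 0.336% and 0.337%. The means were 0.432% ± 0.011 at Veh, 0.320% ± 0.022 at KLA and 0.351% ± 0.020 at RGFP966 + KLA (SD, n = 2). On the log2 scale the mean with KLA differed from Veh by -0.43. That with RGFP966 + KLA differed from KLA by 0.13 and from Veh by -0.30. In such bulk libraries, a region open in fewer cells and a region less open in each cell cannot be told apart.

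The distal peaks had 0.271% and 0.261% at Veh, 0.188% and 0.195% at KLA, and 0.228% and 0.210% at RGFP966 + KLA, in 3 separate ranges. The promoter peaks had 0.153% and 0.179%, 0.117% and 0.140%, and 0.137% and 0.127% in the same order, and here KLA and RGFP966 + KLA overlapped. By role, the glycosidase group went from 93.8 and 91.7 tags per 100000 at Veh to 59.4 and 59.1 at KLA and 59.7 and 49.4 at RGFP966 + KLA. The proteases went from 138 and 158 to 95.2 and 121, and to 135 and 125 with RGFP966. The membrane proteins had 37.2 and 38.8, 37.4 and 45.4, and 44.4 and 42.7, so that Veh and KLA overlapped there, as they did for the V-ATPase. No p-value is given for these sums, because the list was chosen with results of these data known.

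**Figure D2:**
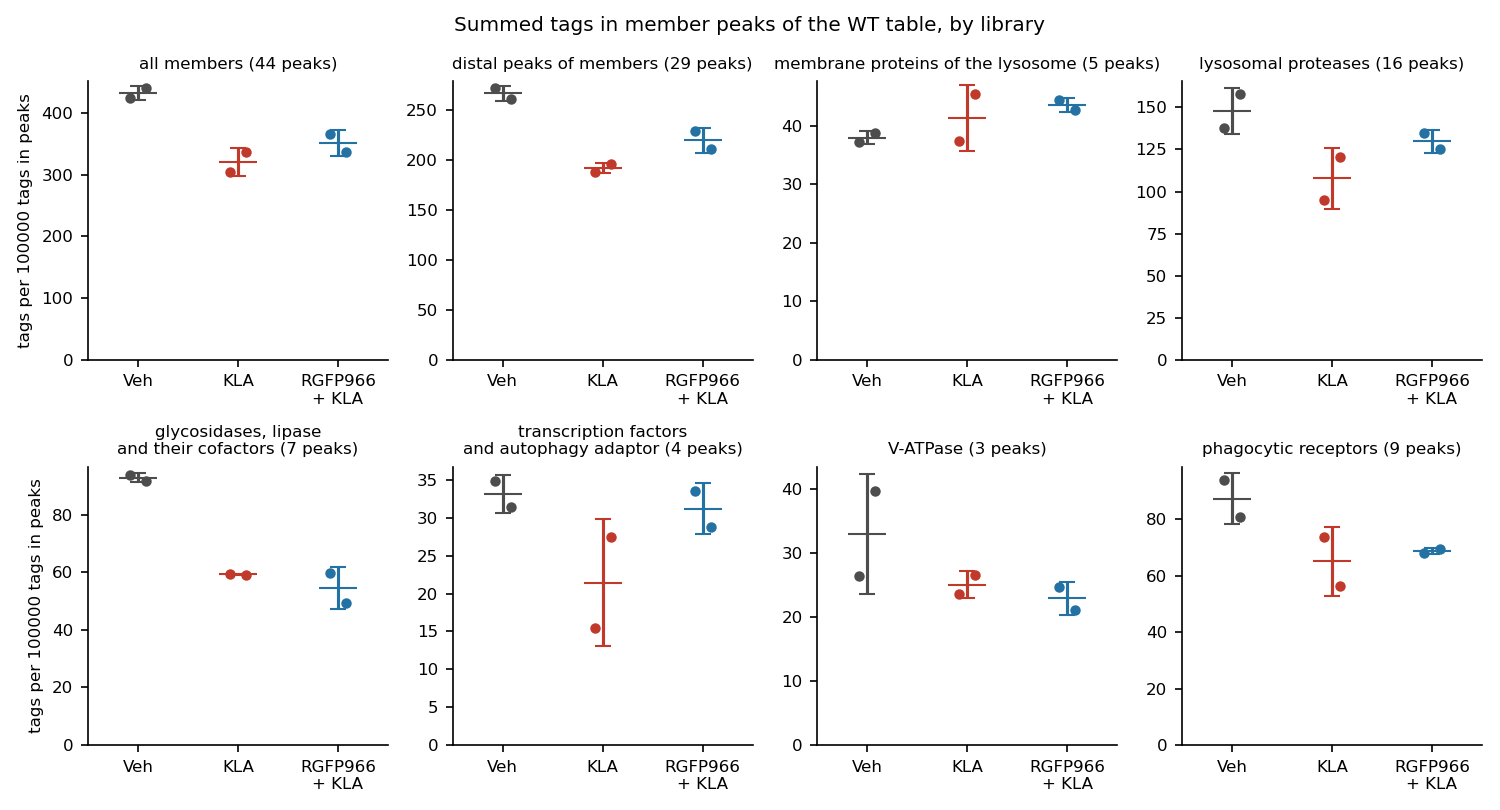
Tags in the member peaks per 100000 tags in peaks (y axis, from 0) for all 44 peaks, the 29 distal peaks and the 6 roles; dots are libraries, bars the mean ± SD of 2 libraries. Veh is highest for all peaks, and the membrane proteins of the lysosome are the role whose Veh mean is lowest of the 3 conditions.

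KLA against Veh asks how TLR4 stimulation changed accessibility at these loci. A peak counted as called when edgeR's quasi-likelihood test gave an adjusted p (Benjamini-Hochberg, over all 9698 peaks) under 0.05 and the change was over 2-fold. Of the 44 peaks, 4 were called lost (9.09%) and 0 called gained, beside 1.73% lost and 3.30% gained of all peaks. The 4 lie at Hexa, Axl, Psap and Ctsh, and all are distal. At an unadjusted p under 0.05, 10 peaks were lower (22.7%) and 1 higher (2.27%), beside 8.28% and 11.2% of all peaks. The fitted change was below 0 at 34 of the 44, and its median was -0.37 on the log2 scale beside 0.02 for all peaks. The libraries of the groups did not overlap, with KLA lower, at 16 peaks (36.4%, beside 22.6% of all), and with KLA higher at 6 (13.6%, beside 25.3%).

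The peak in intron 1 of Hexa, 5341 bp from its TSS, had the smallest p. Hexa encodes the alpha subunit of beta-hexosaminidase, which trims gangliosides. It held 25 and 20 tags at Veh, 9 and 10 at KLA and 12 and 11 at RGFP966 + KLA. In tags per 100000 these were 19.4 and 16.5, 4.81 and 8.57, and 5.93 and 5.66, so that both Veh libraries stood above the other 4. The peak fell by 1.51 on the log2 scale with KLA (SE 0.37, 2.85-fold, edgeR adjusted p = 0.00821).

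Axl is a receptor tyrosine kinase that takes up dying cells through the bridging ligand Gas6. Its peak in intron 6, 11797 bp into the gene, held 17 and 14 tags at Veh, 8 and 4 at KLA, and 3 and 13 at RGFP966 + KLA. As levels these were 13.2 and 11.6, 4.28 and 3.43, and 1.48 and 6.69 tags per 100000, again with both Veh libraries on top, and with a wide gap between the RGFP966 + KLA libraries. The fall with KLA was 3.10-fold (log2 -1.63, SE 0.47, edgeR adjusted p = 0.0279).

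Psap encodes the precursor of the saposins, cofactors of the glycolipid hydrolases. Of its 2 peaks, the one 14982 bp upstream held 14 and 15 tags at Veh, 9 and 3 at KLA, and 11 and 7 at RGFP966 + KLA, or 10.9 and 12.4, 4.81 and 2.57, and 5.43 and 3.60 tags per 100000. Veh was above the rest without overlap, and the fall with KLA was 2.90-fold (log2 -1.53, SE 0.45, edgeR adjusted p = 0.0332). The other peak, at -16860 bp, was not called.

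Ctsh encodes cathepsin H, an aminopeptidase. Its peak at -20178 bp held 20 and 16 tags at Veh, 8 and 9 at KLA, and 17 and 20 at RGFP966 + KLA, or 15.5 and 13.2, 4.28 and 7.71, and 8.39 and 10.3 tags per 100000. The 3 conditions did not overlap and RGFP966 + KLA lay between the others. The fall with KLA was 2.55-fold (log2 -1.35, SE 0.40, edgeR adjusted p = 0.0335). Next came the Cd36 peak 3854 bp upstream (log2 -1.52, edgeR adjusted p = 0.0663), at a gene for a scavenger receptor of oxidized lipids, and its adjusted p missed the threshold.

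The promoter of Ctsd, which carries the CLEAR-type matches printed above, was at 19.4 and 14.9 tags per 100000 at Veh, 6.42 and 11.1 at KLA and 9.88 and 8.75 at RGFP966 + KLA (log2 -1.05 for KLA against Veh, edgeR adjusted p = 0.0674). The promoter of Atp6v0d1, the other gene with the element, stood at -0.46 on the log2 scale (edgeR adjusted p = 0.489) and its libraries overlapped. No peak was called gained, and the 5 with the smallest p in that direction had edgeR adjusted p-values from 0.22 to 0.63. They were the Ctsb peak at 9987 bp (log2 0.96), the Ctsc peak at -6404 bp (0.98), the Npc1 promoter (0.56), the Itgam peak at -11804 bp (0.70) and the Ctsz promoter peak at 59 bp (0.52).

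Peaks entered the table through the conditions in which they were reproducible (IDR peaks), and that choice is tied to direction. The Axl and the called Psap peak were IDR peaks at Veh only, and the Hexa and the Ctsh peak at Veh and at RGFP966 + KLA. The 25 peaks that were in the Veh set made 56.8% of the 44, beside 48.9% of all peaks. Within the 11 peaks reproducible in all 3 conditions the median log2 change with KLA was -0.37, beside -0.05 for all 2753 such peaks. Within the 15 reproducible at RGFP966 + KLA only it was -0.28, beside 0.16. The 7 at Veh only had -1.03, beside -0.81, and the 5 at Veh and RGFP966 + KLA had -1.15, beside -0.56. The 2 at Veh and KLA had -0.09, beside -0.16, and were not lower. The 3 at KLA and RGFP966 + KLA had 0.27, beside 0.61, and the 1 at KLA only had -0.02, beside 0.62. Called lost were 2 of 7 at Veh only, beside 99 of all 800. At Veh and RGFP966 + KLA it was 2 of 5, beside 56 of 898. All 44 passed the filter of 4 tags in at least 1 library, and at no peak were both libraries of a condition at 3 tags or fewer. DESeq2 called 0 of the 44 and 0 of all 9698 peaks. Without Veh replicate 1 or without KLA replicate 1, edgeR called 0.

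**Figure D3:**
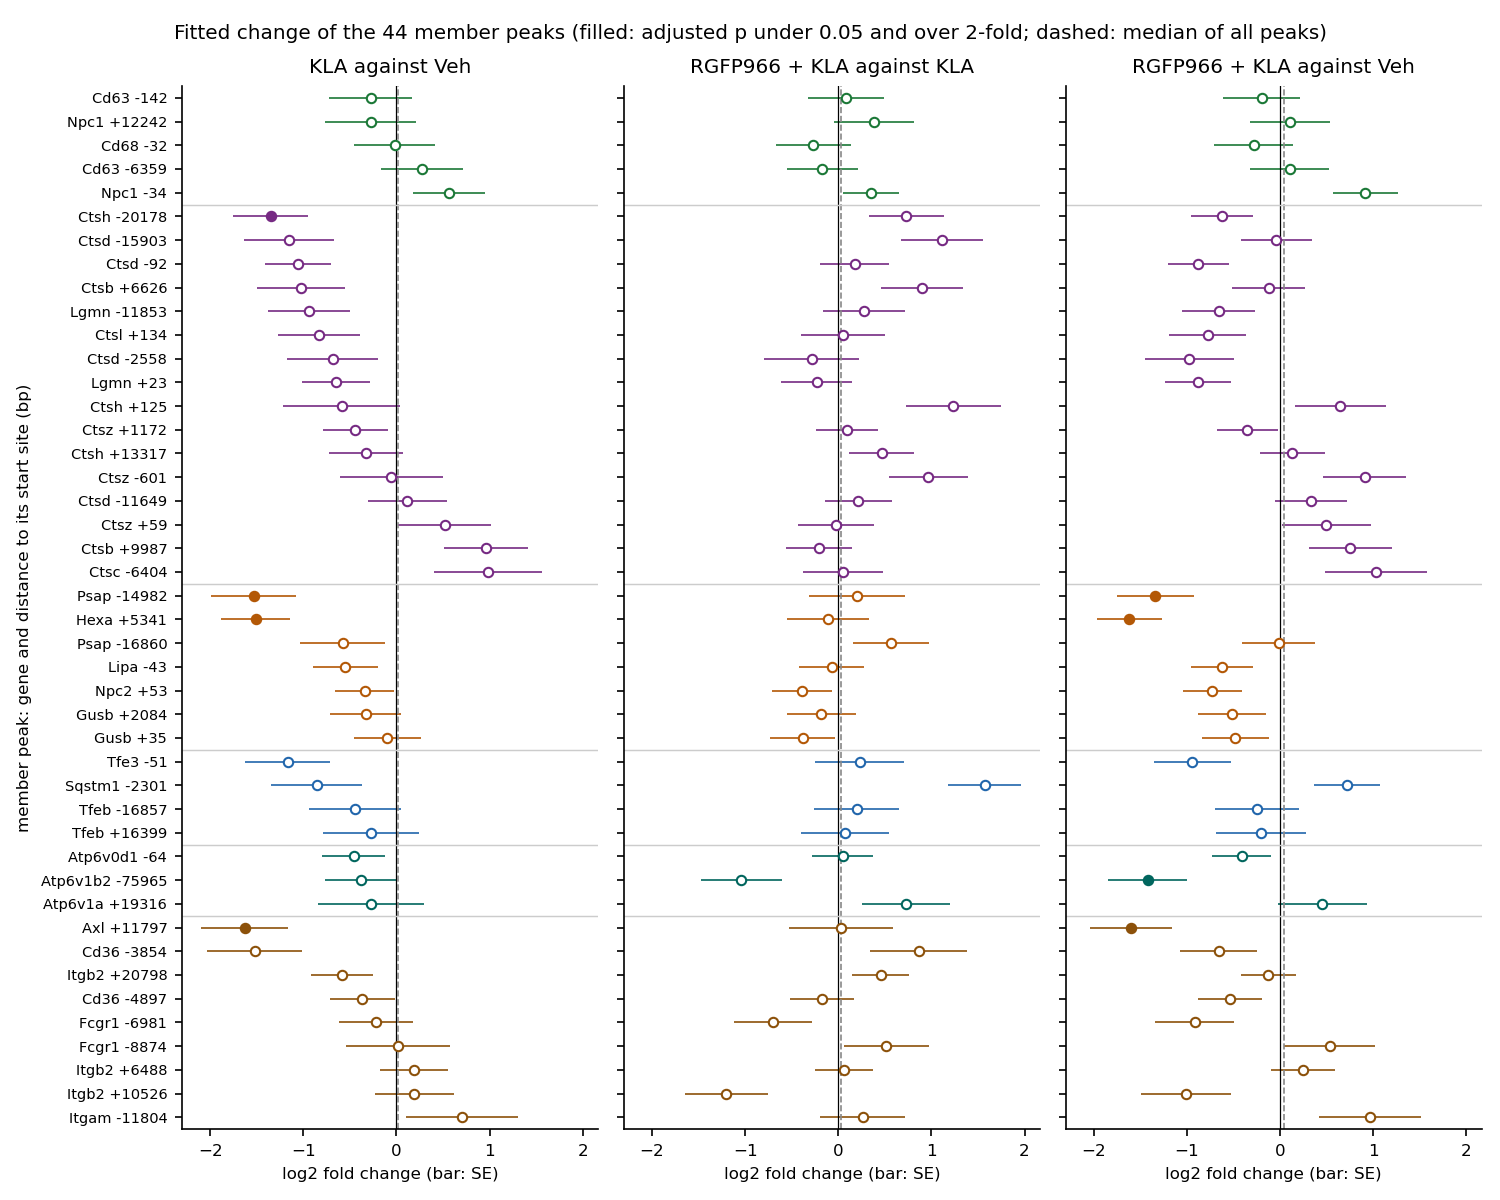
Fitted log2 fold change (x axis) with its SE for the 44 peaks in the 3 WT comparisons, ordered by role and by the change with KLA; filled dots were called and the dashed line is the median of all 9698 peaks. With KLA, 34 of 44 dots lie left of 0 and the 4 filled ones lie between -1.63 and -1.35.

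RGFP966 + KLA against KLA asks what HDAC3 inhibition changed under stimulation. This comparison shares the KLA libraries with the one above. Of the 44 peaks, 0 were called by edgeR, beside 0.237% gained and 0.103% lost of all peaks, and 0 by DESeq2, which called 0 of all peaks. At an unadjusted p under 0.05, edgeR had 5 higher (11.4%) and 2 lower (4.55%), beside 7.92% and 5.93% of all peaks. The groups did not overlap, with RGFP966 + KLA higher, at 13 peaks (29.5%, beside 25.7%), and with it lower at 5 (11.4%, beside 20.1%). The median change was 0.09 on the log2 scale, beside 0.03 for all peaks.

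The smallest p belonged to the peak 2301 bp upstream of Sqstm1, whose product p62 delivers ubiquitinated cargo to autophagosomes. It held 8 and 13 tags at Veh, 7 and 7 at KLA and 33 and 22 at RGFP966 + KLA, or 6.20 and 10.7, 3.74 and 6.00, and 16.3 and 11.3 tags per 100000. Both RGFP966 + KLA libraries stood above the other 4. It was 2.97-fold higher than at KLA (log2 1.57, SE 0.39), and its edgeR adjusted p was 0.0533 over all peaks. It is an IDR peak at RGFP966 + KLA only. It stood just outside the threshold, and 1 peak was called when either Veh library was left out and 0 when any of the 4 KLA-treated libraries was.

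The next 4 in that direction were the Ctsd peak at -15903 bp (log2 1.11), the Ctsh peak in the 5′ UTR (1.23), the Ctsz promoter peak at -601 bp (0.97) and the Ctsb peak at 6626 bp (0.90), with edgeR adjusted p-values from 0.24 to 0.34. Proteases hold 16 of the 44 peaks. Of these 16, 12 had a fitted change above 0 and 4 below it, beside 47.2% of all peaks below 0. That direction is tied to how peaks entered the table. Of all 2908 peaks reproducible at RGFP966 + KLA only, 2487 were above 0, as were 14 of the 15 such peaks of these genes. Several protease peaks, among them those in the Ctsh 5′ UTR and at -601 bp of Ctsz, are of that kind. The count therefore cannot be read as a trait of proteases. The Ctsd peak at -15903 bp had 5.88 and 1.71 tags per 100000 at KLA and 10.4 and 8.24 at RGFP966 + KLA. In the other direction stood the Itgb2 peak at 10526 bp (log2 -1.20, edgeR adjusted p = 0.20), the Atp6v1b2 peak at -75965 bp (-1.04, 0.26), the Fcgr1 peak at -6981 bp (-0.70, 0.45), the Npc2 promoter (-0.39, 0.62) and the Gusb promoter (-0.38, 0.66). None of these passed the test.

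RGFP966 + KLA against Veh shares its Veh libraries with the first comparison. Here 4 of the 44 peaks were called lost (9.09%) and 0 gained, beside 2.99% lost and 6.89% gained of all peaks. All 4 were IDR peaks at Veh, a choice that is tied to this direction. Of peaks reproducible at Veh only, 2 of 7 of these genes and 205 of all 800 were called lost. Of those at Veh and KLA it was 1 of 2, beside 32 of 292. At Veh and RGFP966 + KLA it was 1 of 5, beside 15 of 898. At an unadjusted p under 0.05, 11 of the 44 were lower (25.0%) and 2 higher (4.55%), beside 10.2% and 15.3% of all peaks. The median was -0.27 on the log2 scale, beside 0.04 for all peaks, and 18 peaks were lower without overlap (40.9%, beside 24.7%) and 10 higher (22.7%, beside 30.0%).

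The lost peaks were those of Hexa (log2 -1.62, SE 0.35, edgeR adjusted p = 0.00178), Axl (-1.60, SE 0.44, 0.0121) and Psap (-1.34, SE 0.41, 0.0275), with the levels given above, and a peak of Atp6v1b2. Atp6v1b2 encodes a nucleotide-binding subunit of the cytosolic sector of the V-ATPase. Its peak, 75965 bp upstream of the TSS, held 13 and 16 tags at Veh, 15 and 12 at KLA, and 11 and 6 at RGFP966 + KLA, or 10.1 and 13.2, 8.02 and 10.3, and 5.43 and 3.09 tags per 100000. Both RGFP966 + KLA libraries were lowest, and Veh and KLA overlapped. The fall against Veh was 2.68-fold (log2 -1.42, SE 0.42, edgeR adjusted p = 0.0227), and the peak was an IDR peak at Veh and at KLA.

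The Ctsh peak, lost with KLA, was at log2 -0.62 here (edgeR adjusted p = 0.24), and the Ctsd promoter at -0.88 (0.072). The Npc1 promoter was highest of the higher peaks by p, with 7.75 and 8.26 tags per 100000 at Veh, 12.8 and 10.3 at KLA and 14.8 and 15.4 at RGFP966 + KLA. Its 3 conditions did not overlap, and the difference of 1.88-fold from Veh did not pass the test (log2 0.91, edgeR adjusted p = 0.084). The Ctsz (-601 bp), Sqstm1, Ctsc and Ctsb (9987 bp) peaks followed, with log2 values from 0.72 to 1.03 and edgeR adjusted p-values from 0.19 to 0.29. DESeq2 called 0 of the 44, again with 0 of all peaks. Without Veh replicate 1, edgeR called 1, and without either RGFP966 + KLA library 2.

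**Figure D4:**
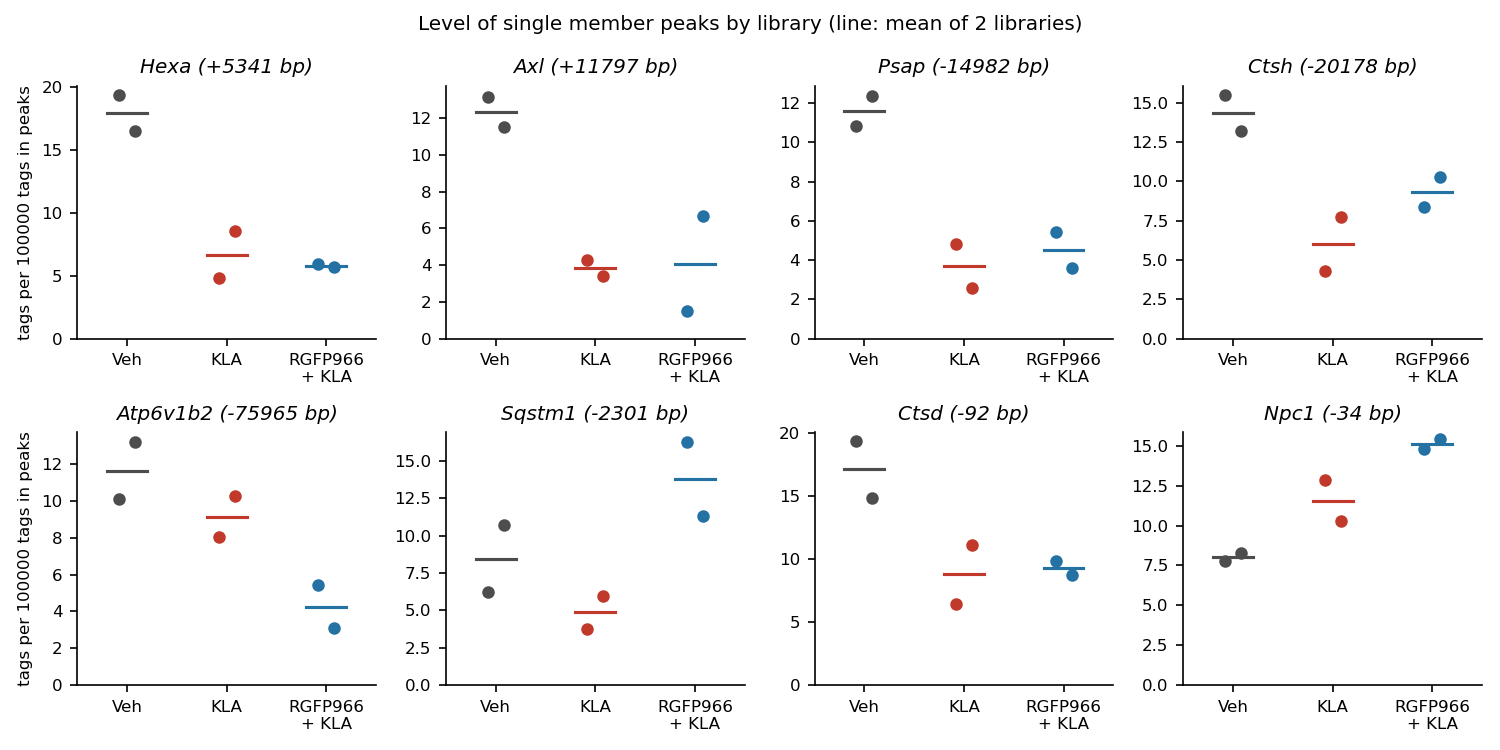
Level of 8 single peaks in tags per 100000 tags in peaks (y axis, from 0), with 1 dot per library and a line at the mean of 2. At Hexa, Axl and Psap both KLA-treated conditions lie below Veh, at Ctsh RGFP966 + KLA lies between the others, and at Sqstm1 (16.3 and 11.3) and Npc1 RGFP966 + KLA is highest.

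Summing the tags of each gene over its peaks tested 6598 genes, 26 of them from the list. With KLA, 3 genes were called lost, Hexa, Axl and Psap (edgeR adjusted p = 0.00613, 0.0195 and 0.0429), and 0 gained, beside 1.29% lost and 2.35% gained of all genes. Ctsd passed the p threshold (edgeR adjusted p = 0.0381) with a change of 1.65-fold, under the fold required. Between RGFP966 + KLA and KLA, Sqstm1 alone was called gained (edgeR adjusted p = 0.0413), beside 0.197% gained and 0.0909% lost, on the same 1 peak whose adjusted p over peaks was 0.0533. That call was absent with TMM factors, with all tags as library size, with DESeq2 and when any of the 4 KLA-treated libraries was left out. Between RGFP966 + KLA and Veh, 3 genes were called lost, Hexa, Axl and Atp6v1b2 (edgeR adjusted p = 0.00109, 0.00686 and 0.0202), beside 2.62% lost and 5.18% gained. The intronic peak is the whole WT signal of Hexa and of Axl, since each has 1 peak.

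A second list of 94 lysosomal, trafficking and phagocytosis genes outside the 41 had 65 WT peaks at 46 genes. With KLA, 3 of these peaks were called gained and 1 lost, beside the 3.30% and 1.73% above. Among the gained ones were peaks at Syk, the kinase downstream of Fc receptors (log2 2.21), and at the promoter of Vps41, a subunit of the HOPS tethering complex (log2 1.66). The lost one was at -1986 bp from Ncf1 (log2 -1.98), which encodes a subunit of the phagocyte oxidase. The Syk and Vps41 peaks were IDR peaks at KLA and RGFP966 + KLA, and this Ncf1 peak at Veh only. These choices are tied to direction, as above. Of all 1310 peaks of the first kind 167 were called gained, and of all 800 of the second 99 were called lost. Between RGFP966 + KLA and KLA, 1 of the 65 was called gained and 0 lost, beside 0.237% and 0.103% of all peaks. It was the promoter of Mfge8, a bridging protein for dying cells (log2 1.94, edgeR adjusted p = 0.0286). It held 6 and 9 tags at Veh, 6 and 3 at KLA and 25 and 21 at RGFP966 + KLA. It is an IDR peak at RGFP966 + KLA only, a choice tied to this direction. Of all 2908 such peaks, 20 were called gained and 0 lost. Between RGFP966 + KLA and Veh, 4 of the 65 were gained, those of Syk and M6pr among them, beside 6.89% of all peaks. Another 4 were lost (Ctns, Mitf and 2 at Ncf1), beside 2.99%. The Syk and M6pr peaks were IDR peaks at KLA and RGFP966 + KLA, those of Mitf and Ncf1 at Veh only, and that of Ctns in all 3 conditions. The 65 peaks had median log2 changes of -0.17, -0.11 and -0.22 in the 3 comparisons.

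The NCoR f/f table merges IDR peaks of vehicle-treated, KLA-treated and NCoR knockout cells, and the tags given here are those of the vehicle-treated NCoR f/f libraries in these merged peaks. Only Atp6v0e had no peak in the table, and 35 of the 41 genes had a promoter peak. Of the 123 peaks, 77 (62.6%) were IDR peaks in vehicle-treated NCoR f/f cells, at 31 genes, and 25 genes had such a peak at the promoter. The peaks of Atp6v1a, Atp6v1h, Ctsa, Ctss, Fcgr1, Fcgr3, Gaa, Gla and Lamp2 came from the KLA-treated or knockout sets only. Every WT peak of these genes overlapped an NCoR f/f peak of the same gene by at least 1 bp, and so 44 of the 123 NCoR f/f peaks (35.8%) had a WT counterpart. The 44 had a median level of 4.78 tags per 100000 and the other 79 one of 2.75. Since each table has its own merged peaks, and the dates in the labels differ from one to the other, no level was compared between NCoR f/f and WT cells.

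Tfeb had the highest sum, 32.0 and 32.8 tags per 100000 over 9 peaks, 3 of them at promoters, which the WT table lacked. The other groups were led by Ctsd (24.2 and 29.0 over 8 peaks), Npc2 (30.1 and 21.6 over 8), Itgb2 (18.5 and 20.6 over 5), Npc1 (17.2 and 14.9 over 3) and Atp6v1b2 (9.67 and 11.2 over 3). The lowest of their groups were Ctss, a cathepsin of antigen processing, at 0.806 and 0.981 over 1 peak, Lamp2 at 1.88 and 1.77, Gaa, Atp6ap1, Tfe3 and Mertk. Mertk, a receptor for dying cells, showed the widest gap of these between libraries, with 27 and 9 tags at its promoter, or 7.25 and 1.77 tags per 100000.

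Per kb of peak, Atp6v0d1 (22.6 tags per 100000 per kb), Lipa (20.5) and Npc1 (20.3) were densest, and Ctss was thinnest at 4.17. Of the peaks lost with KLA in WT cells, those of Hexa and Ctsh were among the taller of the 123 here. They had 6.71 and 7.26 and 6.98 and 7.65 tags per 100000. The Axl peak had 4.83 and 4.90. The Psap peak, at -15092 bp in this table, had 3.49 and 2.94, near the median of 3.14 of the 123 peaks. Hexa also had 3 promoter peaks in this table, one of which, 13 bp from the TSS, held GTCACGTG, as did the promoters of Atp6v0d1, Atp6v1h, Gaa, Gla, Ctsb and Ctsd. Summed over 123 peaks, the loci took 0.443% and 0.435% of the tags in peaks.

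**Figure D5:**
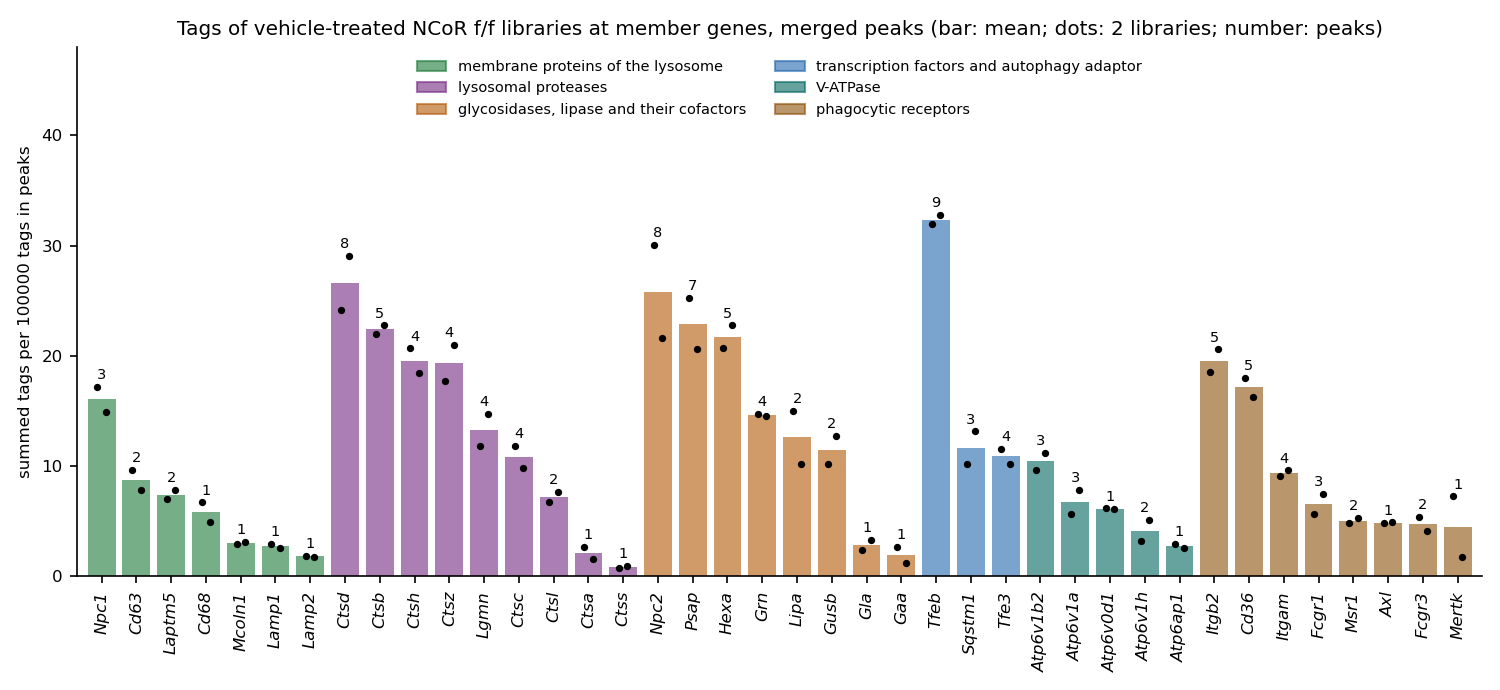
Summed level of the 40 genes with a peak in the merged NCoR f/f table, in its 2 vehicle-treated libraries, in tags per 100000 tags in peaks (y axis, from 0); bars are means, dots the 2 libraries and numbers the peaks of each gene, which differ in width. Tfeb is tallest with 9 peaks, and the dots of Mertk (7.25 and 1.77) lie far apart for its level.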

How the data were processed

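Counts of tags per peak and library were used as deposited, from 8 libraries and 2 tables. According to the study's methods and the headers, Bowtie2 was used by the authors for alignment (mm10) and HOMER for peaks; reproducible (IDR) peaks of the conditions were merged, and raw tags per merged peak were counted with no depth normalization and at most 3 tags per base position, which caps high signal. Gene names, distances to the TSS and IDR sets are the authors'. Any shift of tags for the transposase is not given in the sources used here. The NCoR f/f table also merges IDR peaks of conditions whose libraries were not analysed here.

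The 41 genes, the roles, the second gene list and the tests were chosen with earlier results of these data known. The peaks named are, for each WT comparison, all called peaks of the genes and, where fewer than 5 were called in a direction, those with the smallest unadjusted p up to 5; of each role, the genes with the highest and lowest summed level; and genes with no peak. Some called peaks of the second gene list are not reported here. Other peaks named (the Ctsd and Atp6v0d1 promoters under KLA, single NCoR f/f peaks) were chosen after their values were seen.

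All 9698 WT peaks, and 6598 genes with tags summed within 100 kb, were fitted with edgeR 4.0.16 (glmQLFit, glmQLFTest) in R 4.3.3 over all 6 WT libraries, with total tags in peaks as library size, a minimum of 4 tags in 1 or more libraries and no covariate. Levels are tags per 100000 tags in peaks. The SE of a log2 change was derived from the test, as the absolute change divided by the square root of its F statistic. Alternatives were TMM, loess, all tags, DESeq2 1.42.0, other filters and windows, a replicate block and each library left out. Whether the replicate numbers pair the libraries could not be decided (correlations of same-numbered deviations from 0.0098 to 0.025, at few tags per peak). The fits were tested on simulated data first. Sequence was read for 9527 WT peaks with pysam 0.24.0 from GRCm38.p6, where 92.1% of 3946 promoter peaks had a RefSeq TSS within 5 bp of the given distance.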

Additional observations from a re-analysis of the deposited data

How the results depend on the processing

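The summed difference kept its direction under every alternative run. With all tags as library size, KLA differed from Veh by -0.55 (log2), and RGFP966 + KLA differed from KLA by 0.33, a value that was 0.035 on promoter peaks only. Leaving out 1 library gave -0.50 to -0.36, 0.06 to 0.20 and -0.36 to -0.24 in the 3 comparisons. All tags also moved the median of all peaks, to 0.21 for RGFP966 + KLA against KLA and 0.14 against Veh, where the members had 0.25 and -0.16. The called peaks depended more on the settings. For KLA against Veh, 4 became 2 with all tags, 1 within 10 kb, 0 with DESeq2 under both size factors and 0 to 4 with 1 library left out. For RGFP966 + KLA against KLA, 0 became 1 with loess offsets, with only the 4 libraries, with at least 16 tags, and 0 to 1 with 1 library left out. Against Veh, 4 became 2, 1, 0 and 1 to 4 in the first order. On summed genes, 3 lost with KLA became 1 with all tags, 1 within 10 kb, 0 with DESeq2 and 0 to 3 with 1 library left out. The 1 gene of RGFP966 + KLA against KLA became 0 with TMM, all tags and DESeq2, and 0 to 1. The 3 against Veh became 0 with DESeq2, 1 within 10 kb and 1 to 3. Among all 6598 summed genes, DESeq2 called 23 in the first of these comparisons, 0 in the second and 4 in the third. The Hexa peak's call between RGFP966 + KLA and Veh was lost under DESeq2 alone. Except for the settings' own construction (fewer peaks or libraries), the cause was not tested.

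The deviations of same-numbered libraries were nearly uncorrelated (0.0098 to 0.025). At so few tags per peak counting error can hide a pairing, so these values cannot decide whether the numbers pair the libraries. With a replicate block, 5, 1 and 4 peaks and 3, 1 and 3 genes were called in the 3 comparisons. Directions reversed for the Itgam peak at -11804 bp with KLA (-0.12 to 1.05 with 1 library left out) and for the Gusb promoter between RGFP966 + KLA and KLA (-0.63 to 0.00054), both without KLA replicate 1. A median of 12 tags per peak and library limits what could be called.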
